A study of Mus musculus with 24 samples.

Results

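The Dlx homeobox family has 6 members in the mouse, Dlx1 to Dlx6, and all 6 were among the 25229 gene symbols counted by RNA sequencing in ID8 P53 KO cells. They were taken by symbol, whatever their own values. The family itself was chosen by a measured value, the large rise of Dlx1 counts in the combination compared with cisplatin, which was known from an earlier look at these data. ID8 is a mouse ovarian cancer line from the C57BL/6 strain, and every library came from its Trp53−/− (P53 KO) derivative, so no library with intact Trp53 was available for comparison. The 4 groups of 6 libraries each were vehicle (DMSO), AU15330 at 2.5 uM, cisplatin at 750 nM, and both drugs together, each given for 6 days and referred to here as DMSO, AU-15330, cisplatin and combination. The cisplatin concentration is the one in the labels, and the study's methods give a different one for these cells. AU-15330 is a PROTAC, a molecule that directs the ATPases of the SWI/SNF chromatin remodelling complex, SMARCA4 and SMARCA2, to degradation. Cisplatin crosslinks DNA, and the study used it to drive these cells into senescence, a lasting arrest of division. The library totals lay between 17592588 and 25260009 counts. Levels are given as CPM, counts scaled to a common library size of 1e6, and as CPM per kb of exon wherever one gene is set against another.

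DLX proteins are transcription factors of the NK-like homeobox class and are related to Distal-less of the fly. Their genes stand in the genome as pairs whose 3' ends face each other, and the 2 members of a pair often share enhancers and are then expressed in the same cells. Dlx1, Dlx2, Dlx5 and Dlx6 are best known for the making of forebrain interneurons and the patterning of the jaw, Dlx3 for the placenta, the epidermis, hair, teeth and bone, and Dlx4, the least studied member, for the placenta. BMP signals are among the inputs that induce Dlx genes.

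In GRCm38, the build that mm10 names, Dlx1 (chromosome 2, 71528113 to 71533981, plus strand) and Dlx2 (71543408 to 71546754, minus strand) were separated by 9426 bases. Dlx3 (chromosome 11, 95120119 to 95125296, plus strand) and Dlx4 (95140447 to 95146263, minus strand) were 15150 bases apart. Dlx6 (chromosome 6, 6863334 to 6868568, plus strand) and Dlx5 (6877805 to 6882085, minus strand) were 9236 bases apart. All 3 pairs were convergent. Their merged exons spanned 5396 bases in Dlx1, 2855 in Dlx2, 2607 in Dlx3, 3269 in Dlx4, 2263 in Dlx5 and 2375 in Dlx6. Of the stretches of 70 bases that a read can cover in the transcripts, none in Dlx2, Dlx3 or Dlx5 occurred in a transcript of another gene. The share was 4.78% in Dlx1, all with its antisense RNA Dlx1as, 0.344% in Dlx4, all with Dlx4os, and 2.87% in Dlx6, with 10 other genes.

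Dlx2 moved with Dlx1 under the degrader, so the 250 bases before its start are shown here. They come from the RefSeq promoter table (GRCm38.p6), which held 2 of the 6 members, Dlx1 and Dlx2. The window lies at chr2:71546755-71547004 on the minus strand, directly before the annotated start and outside every annotated exon, and is written 5' to 3' with capitals where a searched motif matched on either strand.

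Dlx2 promoter: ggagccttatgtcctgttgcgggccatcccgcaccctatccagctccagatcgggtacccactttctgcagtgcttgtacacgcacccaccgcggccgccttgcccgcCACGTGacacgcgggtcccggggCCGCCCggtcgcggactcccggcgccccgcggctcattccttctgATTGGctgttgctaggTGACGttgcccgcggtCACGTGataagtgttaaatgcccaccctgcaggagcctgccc

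The capitals mark 2 matches to the E-box CACGTG, 142 and 42 bases before the start, and single matches to the GC box GGGCGG at 119, the CCAAT box at 74 and the shortened CRE motif TGACG at 58. At least 1 CACGTG was present in 6.02% of the 32851 windows of that length in the table, and at least 2 in 0.429%. GGGCGG was present in 32.7%, CCAAT in 33.8% and TGACG in 17.8%. No match was found to TAATTA, the core that homeodomains such as those of the DLX proteins prefer (4.84% of windows), to the AP-1 motif TGANTCA (6.75%), to the full CRE TGACGTCA (1.55%) or to TATAAA (12.4%). The Dlx2 window had a GC content of 66.4% and 24 CpG dinucleotides, and 12% of windows had at least as many. The Dlx1 window (chr2:71529195-71529444, plus strand) had a GC content of 68%, 22 CpG and none of these motifs, and it lay wholly inside annotated Dlx1 exons. These matches describe the letters of the windows only.

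The marker genes of the labelled cell type were only partly present. Of 10 epithelial and mesothelial markers, 7 had a mean of at least 1 CPM in DMSO, with Krt19 at 1783 CPM, Wt1 at 845 CPM and Msln at 524 CPM, whereas the epithelial adhesion gene Epcam averaged 0.0516 CPM, Cdh1 0.747 CPM and Pax8 0.133 CPM. The summed level of the 10 was 3513 to 5309 CPM in the DMSO libraries, 1018 to 1150 CPM with AU-15330, 4178 to 4854 CPM with cisplatin and 1223 to 1404 CPM with the combination, so it moved together with the Dlx changes below, and its part in them was not tested. Markers of other cell types were mixed. Of 6 keratinocyte markers, 3 reached 1 CPM in DMSO (Krt10 at 3.48 CPM, Ivl at 2.06 CPM and Lor at 1.82 CPM), whereas Krt5 and Krt1 had at most 1 count in any library. Their summed level was 6.03 to 9.4 CPM in DMSO, 3.81 to 5.99 CPM with AU-15330, 6.86 to 13.3 CPM with cisplatin and 3.93 to 5.45 CPM with the combination, so it was lower with the degrader. Ivl and Lor had the direction of Dlx3, at 0.104 and 0.601 CPM with AU-15330, whereas Krt10 did not, at 4.11 CPM. Of 6 neuron markers, 1 reached 1 CPM in DMSO (Snap25, 5.31 CPM), Gad1 and Gad2 had at most 4 counts in a library, and the sums overlapped across the groups (4.79 to 8.83, 5.99 to 8.71, 5.12 to 8.13 and 5 to 7.06 CPM in the same order). None of 4 osteoblast markers reached 1 CPM in DMSO and 1, Sp7, did so with AU-15330 (2.62 CPM), while Dmp1 and Ibsp had at most 3 counts in a library. The summed osteoblast level was 0.338 to 0.883 CPM in DMSO, 1.04 to 3.65 CPM with AU-15330, 0.535 to 1.04 CPM with cisplatin and 1.34 to 2.37 CPM with the combination.

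A leukocyte and an endothelial marker moved in the same groups as the Dlx genes. Of 6 leukocyte markers only Cd68, a lysosomal protein of macrophages, reached 1 CPM, at 11.8 CPM in DMSO, 34.8 CPM with AU-15330, 9.25 CPM with cisplatin and 33.7 CPM with the combination, and the summed level was 6.46 to 19, 16.8 to 53, 6.94 to 13.2 and 24 to 42.4 CPM. The pan-leukocyte gene Ptprc had at most 5 counts in a library. Of 4 endothelial markers only Pecam1 reached 1 CPM, at 3.6 CPM in DMSO, 0.458 CPM with AU-15330, 10.2 CPM with cisplatin and 0.748 CPM with the combination, and the summed level was 2.87 to 4.28, 0.261 to 0.763, 8.51 to 12.8 and 0.483 to 1.2 CPM. The endothelial genes Cdh5 and Kdr had at most 3 and 1 counts in a library. The part of these markers in the Dlx changes was not tested.

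In bulk RNA a change in the number of cells with a transcript and a change in the amount per cell cannot be told apart. The mRNA of Smarca4, whose protein the degrader removes, averaged 245 ± 20.3 CPM in DMSO, 387 ± 10.7 CPM with AU-15330, 319 ± 14.9 CPM with cisplatin and 386 ± 11.2 CPM with the combination (SD, n = 6). That of Smarca2, the other target, went the opposite way with the degrader, at 439 ± 44.6, 284 ± 19.7, 496 ± 53.5 and 250 ± 25.3 CPM. Since the degrader acts on the proteins, neither mRNA checks the labels. Nothing in the labels says that the 6 libraries of a group came from separate cultures, and all p-values measure only the spread between these libraries. In every group replicates 4 to 6 were closer to each other than to replicates 1 to 3. The chi-square per degree of freedom between libraries was 8.64 to 53 among replicates 4 to 6 of DMSO and 58.7 to 116 across the 2 sets, and in the drug groups it was 2.26 to 7.48 and 8.76 to 64.2. Replicates 1 to 3 of DMSO ranged from 27.2 to 103 among themselves, which overlapped the range across the sets. The labels name no batch. Values within each set are given beside the results of members that they change.

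With AU-15330 alone, set against DMSO to ask what the degrader does by itself, both genes of the Dlx1/Dlx2 pair rose and Dlx3 fell, while no difference was detected in its partner Dlx4. Neither group entered the comparison through which the family was picked out, so all 6 members were tested here. Of the 6 members, 4 passed the filter on low counts and 3 were called at an adjusted p below 0.05 (edgeR quasi-likelihood test, Benjamini-Hochberg adjustment over 12941 genes), 2 higher and 1 lower. The background is large, since 73.4% of all tested genes were called in this comparison, 36.2% higher and 37.2% lower, and the number of members called is therefore near the background. The split depends on the scaling: higher genes made up 49.3% of the calls, and 58.6% when libraries were scaled by their total counts only. The libraries of the 2 groups did not overlap for these 3 members, nor for 49.9% of all tested genes. The size of the changes was less common. Changes of at least 3 on the log2 scale, which Dlx1 and Dlx2 both exceeded, were found in 2.43% of tested genes, and changes of -3 or below, such as that of Dlx3, in 5.97%.

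Dlx1, a forebrain and branchial arch factor, ranged in DMSO from 2.96 to 5.88 CPM with a median of 4.46 CPM. With AU-15330 it ranged from 77.7 to 85.2 CPM with a median of 83 CPM. Every AU-15330 library thus lay far above every DMSO library, and the treated libraries varied little among themselves (coefficient of variation 3.35%). The means were 4.45 ± 0.989 CPM and 82.4 ± 2.76 CPM (SD, n = 6), an 18.6-fold rise with a log2 fold change of 4.22 (SE 0.11, edgeR adjusted p = 5.88e-21). It was higher in 6 of 6 libraries of the same replicate number, and only 151 of the 12941 tested genes (1.17%) rose more.

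Dlx2, which acts with Dlx1 in interneuron development, ranged from 1.52 to 4.21 CPM in DMSO with a median of 2.61 CPM. With AU-15330 it ranged from 39.2 to 46.7 CPM with a median of 42.2 CPM. Again the groups did not overlap. The means of 2.79 ± 1.12 and 42.3 ± 2.95 CPM (SD, n = 6) gave a 15.4-fold rise, with a log2 fold change of 3.94 (SE 0.17, edgeR adjusted p = 4.63e-17). In this comparison 172 genes (1.33%) rose more than Dlx2.

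Dlx3, a regulator of epidermal, placental and skeletal genes, had the highest level per kb of exon in DMSO. It ranged there from 13.4 to 33.7 CPM with a median of 18.8 CPM, and the spread was wide, since replicates 1 to 3 (21.1 to 33.7 CPM) stood above replicates 4 to 6 (13.4 to 16.5 CPM). With AU-15330 it fell to between 0.315 and 1.36 CPM, with a median of 0.511 CPM, which corresponds to 7 to 26 counts per library. The highest AU-15330 library was still well below the lowest DMSO library. The means were 21.9 ± 8.38 and 0.649 ± 0.369 CPM (SD, n = 6), a 34.2-fold fall with a log2 fold change of -5.10 (SE 0.26, edgeR adjusted p = 2.32e-15). Within replicates 1 to 3 the log2 fold change was -5.98 and within replicates 4 to 6 it was -4.19. It was lower in 6 of 6 same-numbered libraries, and 290 tested genes (2.24%) fell more.

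Dlx4, the partner of Dlx3 on chromosome 11, ranged from 1.94 to 3.43 CPM in DMSO (median 2.56) and from 1.3 to 2.92 CPM with AU-15330 (median 2.44). The groups overlapped. The log2 fold change was -0.22 (SE 0.19, edgeR adjusted p = 0.289), with a 95% interval from -0.60 to 0.15, so a fall of the size seen for Dlx3 lies outside the interval.

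Dlx5 and Dlx6, the third pair, did not pass the filter. Dlx5, known from bone and jaw development, was detected in 2 of 24 libraries, with 2 counts in AU-15330 replicate 5 and 2 counts in cisplatin replicate 1. In DMSO its 0 counts over 6 libraries allow a level of up to 0.0236 CPM (3 counts over the group, counting error only). Dlx6 had 0 to 6 counts per library, and its counts summed over the 6 libraries were 8 in DMSO, 10 with AU-15330, 13 with cisplatin and 15 with the combination. A two-sided exact permutation test of mean CPM (6 against 6 libraries, smallest possible p = 0.00216 where all values differ) gave p = 1 for Dlx5 and p = 0.87 for Dlx6 in AU-15330 against DMSO. For the cisplatin and DMSO libraries the exact permutation p was 1 for Dlx5 and 0.444 for Dlx6. For Dlx5 the test could give no other p, because only 1 library in each comparison had counts, so nothing is read from it. Differences in this pair were not detectable at this depth.

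**Figure D1:**
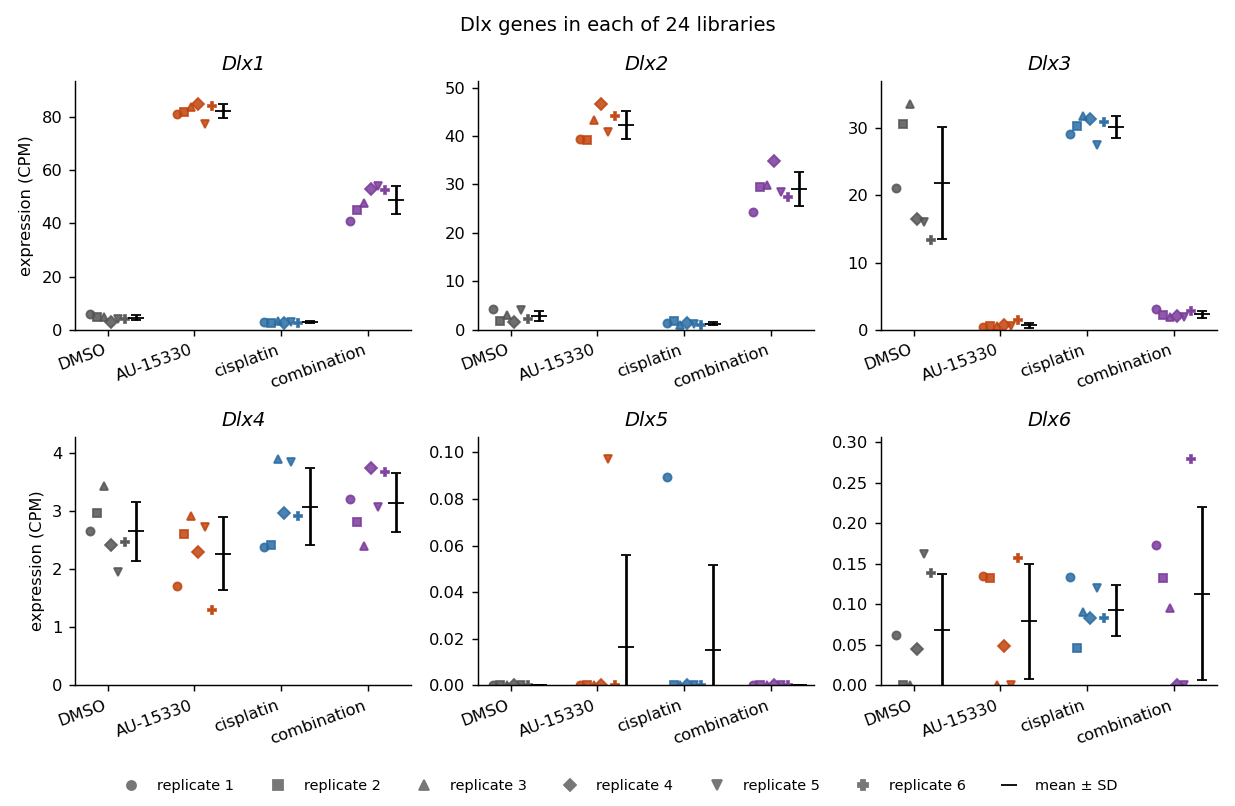
Expression in CPM (linear y axes starting at 0, scaled for each gene) of the 6 Dlx genes in each library, by treatment; marker shapes give replicate numbers and the black bars the mean ± SD of 6 libraries, cut off at 0. Dlx1 and Dlx2 were high in every library that received AU-15330, Dlx3 was high in every library that did not, and Dlx5 and Dlx6 did not exceed 0.279 CPM in any library.

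Antisense RNAs at the same loci were rare. Of the 4 found in the table, none passed the filter. Dlx1as, which overlaps 335 exon bases of Dlx1 (6.21% of its exons), had no counts in the 12 libraries without AU-15330, 1 to 3 counts in each of the 6 AU-15330 libraries (13 in sum) and 5 counts in sum with the combination. Dlx4os, which shares 79 exon bases with Dlx4, had 10 counts in sum in DMSO, 30 with cisplatin, 0 with AU-15330 and 4 with the combination. Dlx6os1 had 3, 11, 0 and 4 counts in DMSO, cisplatin, AU-15330 and the combination, and Dlx6os2 had none. Whether strand was used in counting is not given in the sources used here, so reads from Dlx1 and Dlx1as, or from Dlx4 and Dlx4os, may not have been separated. In the AU-15330 libraries 10713 counts were assigned to Dlx1, beside the 13 of Dlx1as.

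Scaled by exon length, the family changed its make-up as well as its total. The 6 genes together reached 11 ± 3.43 CPM per kb in DMSO, 31.1 ± 1.48 with AU-15330, 13.5 ± 0.599 with cisplatin and 21.1 ± 1.84 with the combination (SD, n = 6). Dlx3 supplied 74.9% ± 6.48 of the family level in DMSO and 85.7% ± 1.57 with cisplatin, against 0.792% ± 0.428 with AU-15330 and 4.21% ± 1.22 with the combination. Dlx1 and Dlx2 together supplied 17.2% ± 5.78 in DMSO, 7.02% ± 0.814 with cisplatin, 96.8% ± 0.446 with AU-15330 and 91% ± 1.94 with the combination. No library broke this division. In DMSO the per-kb order was Dlx3 (8.4 CPM per kb), then Dlx2 (0.977), Dlx1 (0.824) and Dlx4 (0.81), whose spreads overlapped, and then Dlx6 (0.0286) and Dlx5 (0). With AU-15330 it was Dlx1 (15.3) and Dlx2 (14.8), which did not differ beyond their spread, then Dlx4 (0.69), Dlx3 (0.249), Dlx6 (0.0331) and Dlx5 (0.00715). Among the 12717 tested genes with a known exon length, Dlx1 thereby moved from above 17.4% of them in DMSO to above 71.4% with AU-15330, and Dlx3 from 53.5% to 10.7%.

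Dlx1 and Dlx2 stayed close to parity. The ratio of Dlx1 to Dlx2 in CPM per kb was 0.925 ± 0.303 in DMSO, 1.03 ± 0.0541 with AU-15330, 1.21 ± 0.289 with cisplatin and 0.898 ± 0.0977 with the combination (SD, n = 6). The ranges of the 4 groups overlapped one another, from 0.551 to 1.44 in DMSO and from 0.965 to 1.11 with AU-15330.

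**Figure D2:**
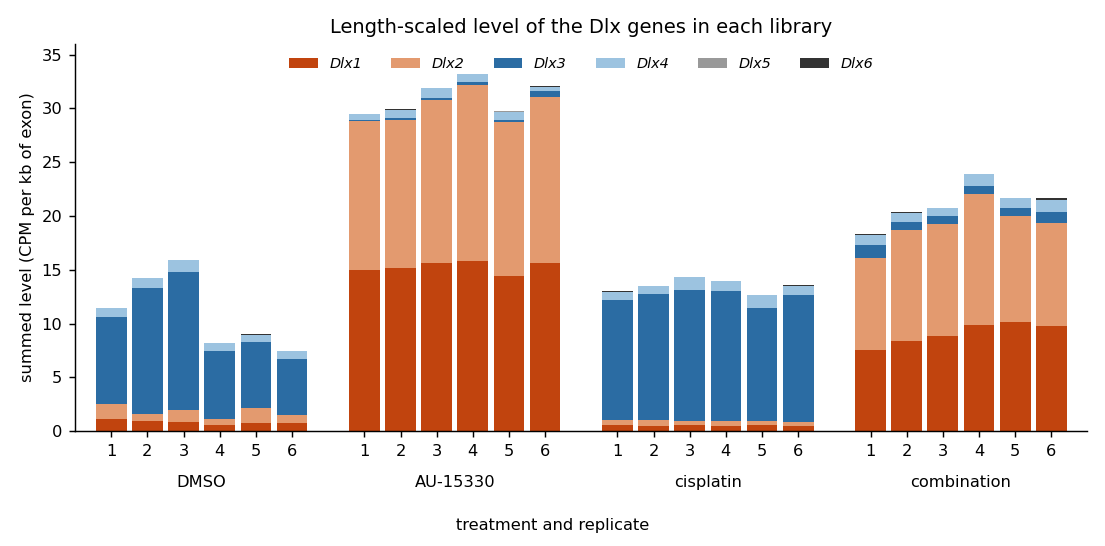
Length-scaled level in CPM per kb of exon, stacked over the 6 Dlx genes, for each of 6 replicates of 4 treatments (linear axis from 0). Dlx3 (dark blue) made up at least 68.5% of each bar in DMSO and 82.8% with cisplatin, and Dlx1 and Dlx2 together (orange shades) at least 96.4% with AU-15330 and 87.9% with the combination.

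Cisplatin alone was compared with DMSO to ask what the chemotherapy does without the degrader. Dlx2 fell, and Dlx3 rose by a small step that did not hold in every setting. Dlx1 is described without a test, because the cisplatin libraries had a part in its choice, and the other 5 members were tested. Dlx2 correlated with Dlx1 also after group means were removed (0.48). The p of Dlx2 is therefore not independent of the choice of the family. Of those 5, 3 passed the filter and 2 of these were called, Dlx2 lower and Dlx3 higher, against a background of 51.7% of genes that passed the filter, 26% higher and 25.7% lower. Higher genes made up 50.2% of these calls, and 61.1% when libraries were scaled by their total counts only. The comparison shares its DMSO libraries with that of AU-15330.

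Dlx2 ranged from 0.994 to 1.68 CPM with cisplatin (median 1.23), beside 1.52 to 4.21 CPM in DMSO. Cisplatin replicate 2, at 1.68 CPM, exceeded the lowest DMSO library, so the groups overlapped slightly. The means of 1.25 ± 0.252 and 2.79 ± 1.12 CPM (SD, n = 6) gave a 2.2-fold fall, with a log2 fold change of -1.14 (SE 0.20, edgeR adjusted p = 4.27e-05). It was lower in 6 of 6 same-numbered libraries, and 222 tested genes (1.72%) fell more. Dlx1 ranged from 2.43 to 3.07 CPM with cisplatin (median 2.77), beside 2.96 to 5.88 CPM in DMSO. Its log2 difference was -0.68 (SE 0.12).

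Dlx3 ranged from 27.5 to 31.9 CPM with cisplatin (median 30.6), a narrow band that lay inside the DMSO range of 13.4 to 33.7 CPM at its upper end. The log2 fold change was 0.46 (SE 0.19, edgeR adjusted p = 0.0394), a 1.38-fold rise, with higher values in 4 of 6 same-numbered libraries. The cisplatin libraries exceeded their DMSO counterparts in replicates 1, 4, 5 and 6 and did not in replicates 2 and 3, where DMSO was high. The call is fragile: it was lost without the libraries numbered 1, 4, 5 or 6 (adjusted p = 0.0691, 0.163, 0.121 and 0.103), with no filter on low counts (0.0582) and with only the 2 groups in the fit (0.0736). The value also differed between the sets of replicates, which were formed after the data had been seen, so their p-values are descriptive. It was 0.09 (SE 0.18, edgeR adjusted p = 0.743) within replicates 1 to 3 and 0.95 (SE 0.14, edgeR adjusted p = 6.24e-05) within replicates 4 to 6. With the set as a term in the fit it was 0.50 (edgeR adjusted p = 0.0176). Dlx4 ranged from 2.37 to 3.89 CPM with cisplatin (median 2.95), overlapped DMSO and was not called (log2 fold change 0.21, SE 0.19, edgeR adjusted p = 0.35, 95% interval -0.15 to 0.58). Its direction turned between the sets, at -0.07 within replicates 1 to 3 and 0.50 within replicates 4 to 6, and it was called in neither (edgeR adjusted p = 0.858 and 0.0713).

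In cells given both drugs, the same genes stood on the same sides as with the degrader alone. The combination was set against cisplatin to ask what the degrader adds in cisplatin-treated cells. This is the comparison in which the family was picked out, so its values are a description with no test. Dlx1 ranged from 40.9 to 54.3 CPM with the combination (median 50.3), against at most 3.07 CPM with cisplatin. The log2 difference was 4.15 (SE 0.12), or 17.8-fold, and 3.92 within replicates 1 to 3 and 4.31 within replicates 4 to 6. Dlx2 ranged from 24.3 to 34.8 CPM (median 28.9), against at most 1.68 CPM, a log2 difference of 4.54 (SE 0.18) or 23.2-fold. Dlx3 ranged from 1.87 to 3.03 CPM (median 2.05), against at least 27.5 CPM, a log2 difference of -3.72 (SE 0.22) or 13.2-fold lower. The libraries of these 3 genes did not overlap between the groups, which held for 50.2% of all tested genes. Dlx4 ranged from 2.4 to 3.73 CPM (median 3.13) and overlapped cisplatin, with a log2 difference of 0.04 (SE 0.18, 95% interval -0.32 to 0.39). Against DMSO, the combination differed on the log2 scale by 3.47 (SE 0.11) for Dlx1, 3.40 (SE 0.17) for Dlx2, -3.25 (SE 0.22) for Dlx3 and 0.25 (SE 0.19) for Dlx4, again as a description. Within replicates 1 to 3 and replicates 4 to 6 these values were 3.07 and 3.81 for Dlx1, -3.64 and -2.82 for Dlx3, and -0.15 and 0.57 for Dlx4, whose direction thus turned between the sets.

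Measured from DMSO, the log2 changes were smaller in the combination than with AU-15330 alone for all 3 genes, a comparison added after the values had been seen and likewise given without a test. Dlx1 stood at 49 ± 5.31 CPM with the combination and 82.4 ± 2.76 CPM with AU-15330 (SD, n = 6), a log2 difference of -0.75 (SE 0.09; -0.92 within replicates 1 to 3 and -0.66 within replicates 4 to 6), and Dlx2 at 29 ± 3.47 and 42.3 ± 2.95 CPM, a log2 difference of -0.54 (SE 0.14). Dlx3 was higher in the combination, at 2.28 ± 0.496 CPM beside 0.649 ± 0.369 CPM, a log2 difference of 1.84 (SE 0.30) or 3.58-fold, with 2.34 within replicates 1 to 3 and 1.37 within replicates 4 to 6. In each of the 3 genes the 6 combination libraries did not overlap the 6 AU-15330 libraries, as was the case for 29.6% of tested genes. Dlx4 overlapped, with a log2 difference of 0.47 (SE 0.19, 95% interval 0.11 to 0.84).

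The difference between the degrader's log2 change with cisplatin and that without it uses the comparison that picked out the family, so it too is a description with no test. It was -0.07 (SE 0.16, 95% interval -0.37 to 0.24) for Dlx1. For Dlx2 it was 0.59 (SE 0.25, interval 0.11 to 1.07), that is, a larger fold rise when cisplatin was present, at 0.83 in lane 1 alone and 0.31 in lane 2 alone. For Dlx3 it was 1.38 (SE 0.36, interval 0.68 to 2.08), a smaller fold fall when cisplatin was present, but the size depended on the libraries, at 2.25 (SE 0.36) within replicates 1 to 3 and 0.42 (SE 0.33) within replicates 4 to 6. For Dlx4 it was 0.26 (SE 0.26, interval -0.25 to 0.78). Ordered by level, Dlx1 ran from AU-15330 through the combination and DMSO to cisplatin, and the last pair overlapped by only a small margin. Dlx2 had the same order. Dlx3 ran from cisplatin and DMSO, which overlapped, through the combination to AU-15330, and the order of Dlx4 had no neighbouring groups that separated.

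**Figure D3:**
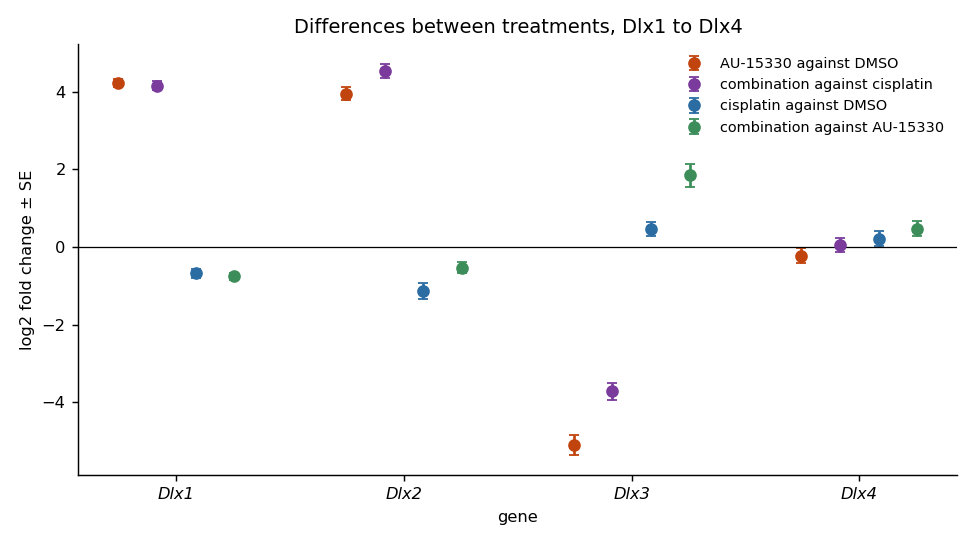
Log2 fold changes with their SE for Dlx1 to Dlx4 in 4 comparisons, from 1 fit over 24 libraries; the first-named treatment is higher above 0. The degrader comparisons (AU-15330 against DMSO and combination against cisplatin) lie at 3.94 or above for Dlx1 and Dlx2 and at -3.72 or below for Dlx3, and all 4 values of Dlx4 lie within 0.47 of 0.

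Across the 24 libraries the log2 CPM of Dlx1 and Dlx2 had a Pearson correlation of 0.99, and those of Dlx1 and Dlx3 one of -0.97, values that mainly restate the differences between treatments. After group means were removed, the coefficients were 0.48 and 0.24. The partners Dlx3 and Dlx4 had 0.30 over all libraries and 0.02 within groups. These are descriptions over libraries that share treatments and depth. The genes whose pattern was closest to that of Dlx1 were Dlx2 (r = 0.9898), Tmem267, Nr2f1, Pus7l and Paox, and those closest to Dlx2 were Dlx1, Tmem107, Ier5l, Myo1h and 4632415L05Rik. Close to Dlx3 were Sgk1 (r = 0.9859), a kinase induced by glucocorticoids, Ceacam1, the complement gene C3 and the myosin kinase gene Mylk. Such likeness was common: 888 genes had r above 0.9 with Dlx1, 755 with Dlx2 and 1118 with Dlx3. None had it with Dlx4, for which Ppic came closest (r = 0.8209).

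With AU-15330 the genes around the pairs moved in both directions and by less than Dlx1, Dlx2 or Dlx3. The 3 nearest protein-coding genes on each side of the 3 pairs gave 18 neighbours, of which 15 were tested. Of these, 4 were called higher and 7 lower, beside 73.4% of all tested genes called (36.2% higher and 37.2% lower), so their count is near the background. Their log2 fold changes spanned -1.50 to 2.78. Metap1d, a methionine aminopeptidase gene 2.92 kb from Dlx1, rose from 79.9 ± 11 to 126 ± 9.06 CPM (SD, n = 6; log2 fold change 0.65, SE 0.08, edgeR adjusted p = 9.86e-08). Hat1, a histone acetyltransferase gene 86.5 kb away, rose more, from 171 ± 47 to 1174 ± 136 CPM (log2 fold change 2.78, SE 0.14, edgeR adjusted p = 8.84e-16). Slc25a12 on the same side rose by 1.00 on the log2 scale. On the Dlx2 side, the integrin gene Itga6 fell by 0.37, a call lost within replicates 4 to 6 (-0.12, edgeR adjusted p = 0.143), and Pdk1 fell by 1.50. Near Dlx3 and Dlx4, the integrin gene Itga3, 43.3 kb from Dlx3, fell by 1.11 on the log2 scale, Pdk2 by 0.42 and Fam117a by 1.17, while Samd14 rose by 2.02 and Kat7 was not called (-0.13, edgeR adjusted p = 0.0939). Without the libraries numbered 1, Kat7 was called, at -0.22 (edgeR adjusted p = 0.00651). Around Dlx5 and Dlx6, Sem1 and Slc25a13 each fell by 0.72, and Dync1i1, Sdhaf3 and Asns were not called. Within replicates 4 to 6 Asns was called, at -0.55 (edgeR adjusted p = 0.000538). Rapgef4, Tac4 and Tac1 had at most 4 counts in a library.

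With cisplatin, 5 of the 15 neighbours were called higher and 6 lower, beside 51.7% of all tested genes. These counts were unstable: 3 were higher without the libraries numbered 2, where Hat1 (edgeR adjusted p = 0.115) and Fam117a (0.0678) lost their calls, 3 were higher and 5 lower with only the groups compared in the fit, 4 were lower in lane 2 alone, and 2 were higher and 2 lower within replicates 1 to 3. In the combination against cisplatin 6 were higher and 8 lower, with 4 higher without the libraries numbered 1, 3, 5 or 6 (68.1% of all tested genes were called there, 35.4% higher and 32.7% lower). The neighbours' log2 fold changes spanned -1.73 (Pdk1) to 1.78 (Dync1i1) with cisplatin, a wider span than that of the Dlx genes there. Metap1d and Slc25a12 both had the direction of Dlx1 and Dlx2 in all 3 comparisons. Hat1, which lies between them, did not, since it was higher with cisplatin (log2 fold change 0.35, SE 0.13). Itga3 and Fam117a had the direction of Dlx3 in all 3, with 0.28 and 0.23 for cisplatin. The cisplatin call of Itga3 was lost within replicates 1 to 3 (0.06, edgeR adjusted p = 0.668). How many of all genes have such patterns was not counted. Metap1d had a log2 fold change of -0.91 (SE 0.08, edgeR adjusted p = 1.51e-09) for cisplatin and 1.02 (SE 0.08, edgeR adjusted p = 4.15e-11) for the combination against cisplatin. Slc25a12 had -0.38 (SE 0.08, edgeR adjusted p = 0.000187) and 0.98 (SE 0.08, edgeR adjusted p = 1.69e-11). Its cisplatin call was lost within replicates 1 to 3 (-0.35, edgeR adjusted p = 0.0688).

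**Figure D4:**
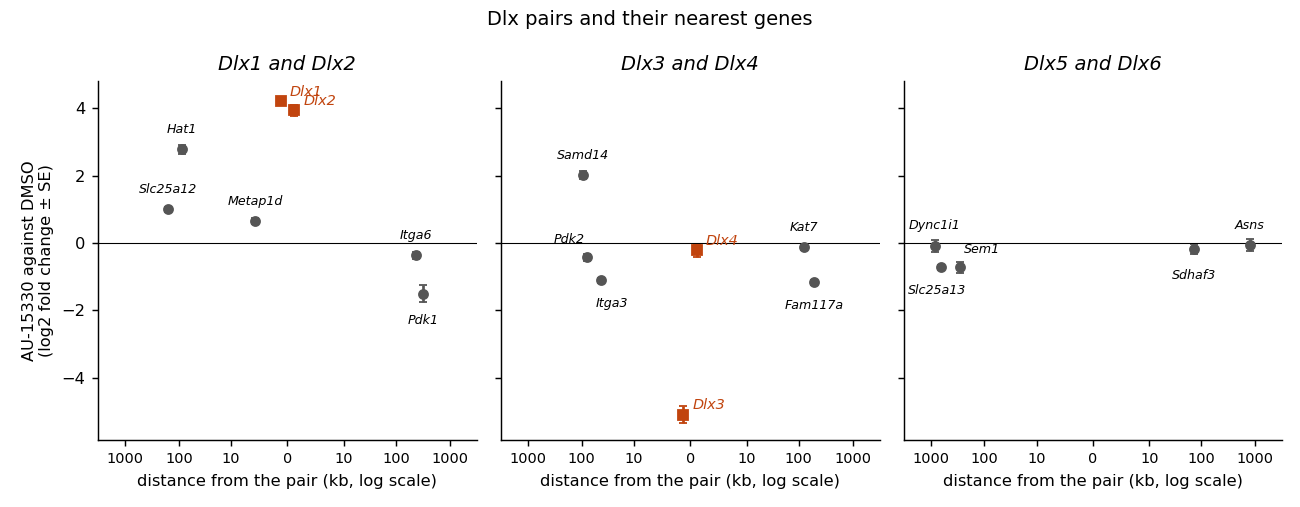
Log2 fold change with SE, AU-15330 against DMSO, for the tested Dlx genes (squares, drawn side by side at the centre) and the tested neighbours of each pair (circles) by distance in kb on a log axis, to lower coordinates on the left and higher on the right. Around Dlx1 and Dlx2 the 3 genes on the left rose and the 2 on the right fell, and neither member of the third pair was tested.

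Genes of processes in which Dlx genes act were examined through 6 lists drawn from textbook roles. Counts are of genes called in AU-15330 against DMSO, for which 73.4% of all tested genes were called and the median log2 fold change over all genes was 0.00. The share of called genes was high in every list, as it was in the background.

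Among 42 other NK-like homeobox genes, the class to which Dlx genes belong, 41 were in the table and only 2 passed the filter. Both rose, with a median log2 fold change of 1.02. Lbx2 went from 0.764 ± 0.434 to 2.25 ± 0.663 CPM (SD, n = 6; log2 fold change 1.56, SE 0.27) and Hhex, a factor of early liver and blood development, from 6.34 ± 1.36 to 8.8 ± 1.7 CPM (0.48, SE 0.14). Hhex was not called within replicates 1 to 3 (0.46, edgeR adjusted p = 0.0582). Msx1 and Msx2, close relatives that often act with or against Dlx genes, were among those that did not pass the filter.

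BMP signalling, an upstream input of Dlx genes, had 19 tested genes of 29 listed, of which 5 rose, 13 fell and 1 did not pass the test, with a median log2 fold change of -0.91. The BMP target genes Id1 and Id3, which encode inhibitors of basic helix-loop-helix factors, fell from 151 ± 23.5 to 12.9 ± 6.84 CPM and from 135 ± 35.1 to 17.5 ± 8.21 CPM (log2 fold changes -3.54, SE 0.25, and -2.95, SE 0.26). The ligand gene Gdf6 rose from 6.62 ± 2.23 to 26 ± 2.67 CPM (1.99, SE 0.15), and Chrd, which encodes the BMP antagonist chordin, from 5.22 ± 1.01 to 10.7 ± 1.51 CPM (1.04, SE 0.14).

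In the epidermis and placenta list, the setting in which Dlx3 is best known, 7 of 15 genes were tested, and 1 rose, 5 fell and 1 did not pass the test (median -1.59). Cdsn, which encodes corneodesmosin of the outer epidermis, fell from 76.9 ± 36.7 to 0.198 ± 0.123 CPM (log2 fold change -8.60, SE 0.43), and the cornified envelope gene Ivl from 2.06 ± 0.636 to 0.104 ± 0.0989 CPM (-4.18, SE 0.47). Trp63, a master regulator of stratified epithelia, rose from 6.73 ± 1.47 to 20.2 ± 2.54 CPM (1.58, SE 0.14). The keratinocyte genes Krt5 and Krt14 did not pass the filter. Ivl, Lor, Krt5 and Krt14 are also among the keratinocyte markers above.

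In the branchial arch list, where Dlx genes act downstream of endothelin, 7 of 20 genes were tested, and 4 rose and 3 fell (median 0.38). Edn1, which encodes the endothelin that patterns the lower jaw, fell from 24.4 ± 4.23 to 0.529 ± 0.31 CPM (log2 fold change -5.51, SE 0.30), and Ece1, whose product activates it, from 433 ± 64.4 to 170 ± 2.92 CPM (-1.35, SE 0.10). Nr2f1, a nuclear receptor gene, rose from 14.1 ± 2.53 to 98.2 ± 10.1 CPM (2.80, SE 0.11) and Notch2 from 102 ± 19 to 239 ± 21.7 CPM (1.23, SE 0.13). Nr2f1 was also among the 5 genes closest to Dlx1 in pattern.

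In the forebrain interneuron list 9 of 22 genes were tested, and 2 rose, 5 fell and 2 did not pass the test (median -0.45). Lhx6, a gene downstream of Dlx1 and Dlx2 in cortical interneurons, fell from 14.7 ± 1.15 to 1.75 ± 0.376 CPM (log2 fold change -3.07, SE 0.13), and Maf from 180 ± 31.4 to 63.8 ± 1.54 CPM (-1.50, SE 0.09). In the bone and tooth list 7 of 15 were tested, and 2 rose, 4 fell and 1 did not pass the test (median -0.92). Sp7, the osteoblast factor osterix, rose from 0.539 ± 0.188 to 2.62 ± 1.05 CPM (log2 fold change 2.27, SE 0.32), whereas Col1a1, a collagen gene, fell from 368 ± 174 to 70.5 ± 17.2 CPM (-2.38, SE 0.25) and the cartilage factor gene Sox9 from 70.8 ± 4.83 to 16.5 ± 2.81 CPM (-2.10, SE 0.10). Sp7 is also 1 of the 4 osteoblast markers.

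The same lists were counted in the other comparisons, over the same tested genes. With cisplatin, where 51.7% of all tested genes were called (26% higher and 25.7% lower), 1 of the 2 NK-like genes was higher, and the counts higher and lower were 4 and 8 for BMP signalling, 2 and 1 for the epidermis and placenta, 3 and 2 for the branchial arches, 3 and 1 for the forebrain, and 2 and 4 for bone and tooth. In the combination against cisplatin, where 68.1% were called (35.4% higher and 32.7% lower), both NK-like genes were higher, and the counts were 3 and 14 for BMP signalling, 1 and 5 for the epidermis and placenta, 3 and 3 for the branchial arches, 2 and 6 for the forebrain, and 2 and 1 for bone and tooth. The lists are small, and nothing particular to them is read from these counts.

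**Figure D5:**
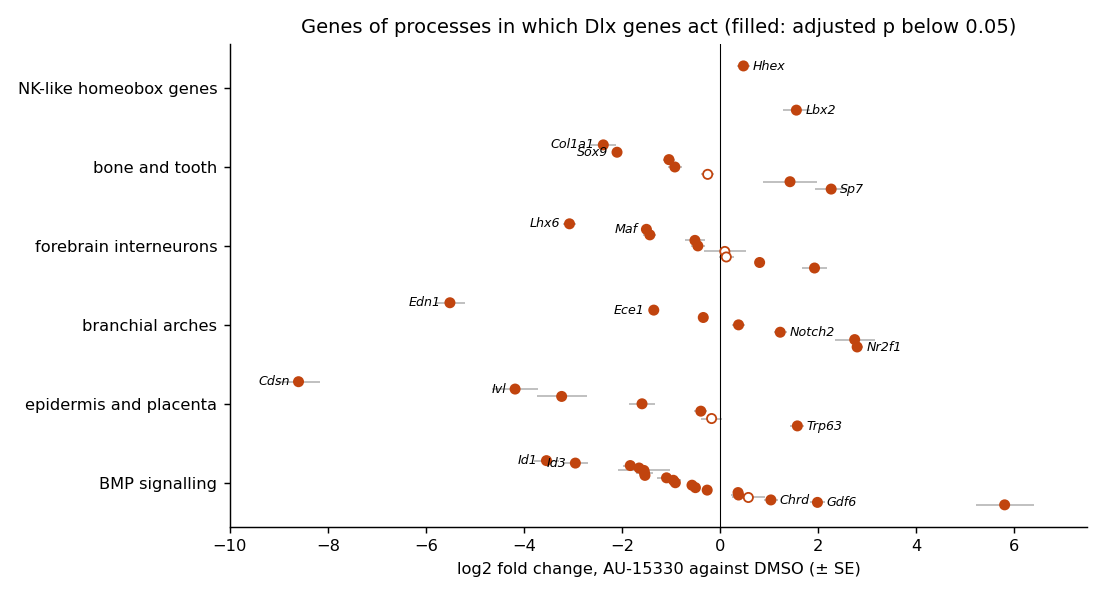
Log2 fold changes with SE of every tested gene in the 6 lists, AU-15330 against DMSO; filled points have an adjusted p below 0.05 and the genes named are among the highest and lowest called ones with at least 1 CPM on average. Cdsn, at -8.60, and Edn1, at -5.51, lie farthest to the left, and the unnamed point at 5.81 is Bmp7, which averaged 0.00812 CPM in DMSO and 0.787 CPM with AU-15330.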

How the data were processed

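Polyadenylated RNA was sequenced from single ends. The authors aligned reads with STAR and deposited raw counts per gene symbol, with 2 lanes for each of 24 libraries (48 columns). The submitters' processing notes name STAR 2.7.1a, DESeq2 1.36.0 and mm10. The counting tool, its annotation and its use of strand are not given in the sources used here. Lanes were summed. In edgeR 4.0.16 (R 4.3.3) counts were scaled by TMM and filtered with filterByExpr, 1 quasi-likelihood fit held all 24 libraries, and p-values were Benjamini-Hochberg adjusted over 12941 genes (threshold 0.05). CPM use TMM library sizes. Tested on simulated counts for AU-15330 against DMSO (12290 genes), the fit called 183 of the 192 changed genes that passed the filter, with 4.19% false calls. Only 200 genes were changed in that simulation, and it held no sets of like replicates. Its share of false calls therefore does not carry over to the real comparisons, in which far more genes were called. Members that failed the filter were compared by exact permutation. Alternatives were a replicate block, other scalings, DESeq2 1.42.0, no filter, fewer groups, single lanes and left-out replicates, and, chosen after seeing the data, replicates 1 to 3 or 4 to 6 only and the set as a term. Gene models were GENCODE M21.

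The members and lists were chosen with earlier results of these data known. The text names all 6 members, the antisense RNAs in the table, the 3 nearest genes on each side of a pair, the 5 genes closest to each tested member, and from each list the 2 highest and 2 lowest called genes with a mean of at least 1 CPM. Some genes that this rule picks are not reported here. Other genes were named after their values had been seen. No pair of replicate libraries agreed within sampling noise (chi-square per degree of freedom of at least 2.26, against 1.36 to 1.46 between lanes), and each was kept as 1 replicate. That does not show separate cultures.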

Additional observations from a re-analysis of the deposited data

Results flagged for a closer look

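Dlx5 had counts in 1 library of the AU-15330 group and 1 of the cisplatin group, replicate 5 and replicate 1, with 2 counts each (0.0971 and 0.0896 CPM), beside 0 counts in the other 5 libraries of each group. The gap between the highest library and the others, divided by the range of the group, is then 1 by construction, whatever the count, so this ratio does not show that the libraries stand apart.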

How the results depend on the processing

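Each member's value was recomputed under up to 17 alternatives. The rises of Dlx1 and Dlx2 and the fall of Dlx3 with AU-15330 kept their direction and their call in every one, with log2 fold changes of 3.99 to 4.47, 3.78 to 4.10 and -5.98 to -4.19. So did the fall of Dlx2 with cisplatin (-1.38 to -0.85), and Dlx4 was called in none. The rise of Dlx3 with cisplatin kept its call in 10 of 17 alternatives. With no filter on low counts it was 0.44 (adjusted p = 0.0582) and with only the groups compared in the fit 0.46 (adjusted p = 0.0736), and the number of members called with cisplatin was then 1, not 2. When the libraries of each replicate number were left out in turn, that number was 1 to 2 and the log2 fold change of Dlx3 0.35 to 0.64. The call was lost without replicates 1, 4, 5 and 6. The cause was not tested. Under total counts alone the median of all genes shifted to 0.126 on the log2 scale with AU-15330 and 0.104 in the combination against cisplatin, and the directions of Dlx1, Dlx2 and Dlx3 did not change. The untested differences of the members moved by less than 1 SD between replicates in every alternative except the 2 sets of replicates.

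The sets of replicates were separated after the data had been seen. With replicates 1 to 3 only, 4361 genes were called in cisplatin against DMSO, and 1 of the members, since Dlx3 was at 0.09 (adjusted p = 0.743). Of the NK-like genes 1 was then called with AU-15330. With replicates 4 to 6 only, Dlx3 was at 0.95 (adjusted p = 6.24e-05). In replicates 1 to 3 and replicates 4 to 6 respectively, Dlx1 differed by 3.92 and 4.31 in the combination against cisplatin and by 3.07 and 3.81 in the combination against DMSO, and Dlx4 by -0.15 and 0.57 in the latter. Dlx3 differed by -2.82 there in replicates 4 to 6. Against AU-15330, the combination differed by -0.92 for Dlx1 and 2.34 for Dlx3 in replicates 1 to 3. The difference of the degrader's effect on Dlx3 was 2.25 and 0.42.

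Replicate numbers are shared across treatments, and the labels do not say that a number marks a shared batch. Over 36 same-numbered pairs the deviations from the group means correlated at 0.145 on average, against -0.0269 for pairs of different number. Of the same-numbered pairs 23 exceeded 0.1 and the lowest was -0.133, so not every pair passed 0.1 and the numbers were not taken as pairing the libraries. As a hint from the data the other way, each library's correlations with the other groups were averaged by replicate number. In 10 of 24 libraries the mean was highest for the library's own number. A replicate block called 9966 genes in AU-15330 against DMSO, 7354 in cisplatin against DMSO and 9286 in the combination against cisplatin, beside 9497, 6689 and 8813 without it. With the block, Dlx3 rose by 0.50 with cisplatin (edgeR adjusted p = 0.0197), and no call of a member changed. Dlx5 and Dlx6 were too shallow, at 0 to 6 counts per library, for a difference to be measured.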
